A study of Mus musculus with 4 samples.

Results

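Open chromatin and footprints at the loci of 6 surface proteins were described in mouse cDC1 and pDC. The loci are those of Clec9a, Clec12a and Clec7a, which lie together among C-type lectin genes, and of Cd8a, Cadm1 and Itgae. Their members are all open intervals and all footprints that overlapped 4 fixed windows of the mm9 genome, on chromosome 6 from 129.1 to 129.6 Mb for the C-type lectins, on chromosome 6 from 71.28 to 71.38 Mb for Cd8a, on chromosome 9 from 47.28 to 47.72 Mb for Cadm1 and on chromosome 11 from 72.86 to 73.0 Mb for Itgae. The windows, 1180 kb in all, held 137 of the 83701 open intervals listed in cDC1 and 86 of the 51941 listed in pDC, with 796 of 513689 footprints in cDC1 and 489 of 312959 in pDC. An open interval is a stretch of accessible chromatin called by MACS2, and a footprint is a short protected stretch inside it, called by HINT-ATAC, where the transposase cut less than at its flanks.

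The cells had been differentiated from mouse bone marrow in a two-step culture, with an expansion step in cytokines followed by a step with Flt3 ligand. Both cell types shared this culture and were then sorted, cDC1 as CD11c+ CD11b+ XCR1+ cells and pDC as CD11c+ CD11b- B220+ cells, so that none of the 6 proteins was used in the sort. Omni-ATAC-seq was performed on 2 replicate samples per cell type, and whether these are separate cultures or mice is not stated. They were merged by the authors, and the 1 list per cell type leaves no replicate error and no test of a difference between the cell types. The sources used here give neither strain, sex nor age of the mice, and the labelled cell types were not checked against gene expression.

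Dendritic cells take up material from their surroundings and present it to T cells. cDC1 are known for presenting antigen from dead cells and viruses to CD8+ T cells, and pDC for secreting type I interferon. The 6 proteins are receptors and adhesion molecules of the cell surface, and Clec9a, Cd8a, Cadm1 and Itgae are in wide use as markers of mouse cDC1. Clec9a (DNGR-1) is a receptor for actin filaments exposed by dead cells. Clec12a is an inhibitory receptor of the same family and Clec7a (Dectin-1) is a receptor for fungal beta-glucan. Cd8a encodes the alpha chain of CD8, which dendritic cells carry as a homodimer. Cadm1 is a cell adhesion molecule of the immunoglobulin superfamily, and Itgae (CD103) is the integrin alpha E chain, which binds E-cadherin on epithelial cells together with integrin beta 7.

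In the GRCm38.p6 annotation of RefSeq the genes from Cd69 to Tmem52b follow each other in the order Cd69, Clec2m, Clec12a, Clec12b, Clec1b, Clec9a, Clec1a, Clec7a, Olr1 and Tmem52b. Cd8a lies between Cd8b1, the gene of the CD8 beta chain, and Rmnd5a. Cadm1, whose gene spans 332 kb, lies between Gm4791 and Nxpe4. Itgae, whose gene spans 56.9 kb, lies between Ncbp3 and Haspin. These positions belong to another build than the lists, and coordinates were not converted. No open interval was therefore assigned to a promoter, exon or intron, and each region is given by its mm9 position only.

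The promoter table of RefSeq held 4 of the 6 genes, Clec9a, Clec12a, Clec7a and Cd8a. The 250 bases before the start of Clec12a and of Clec9a are shown because a match to a motif searched here lay in 1 of these neighbours in the same window and not in the other. They lie at chr6:129349994-129350243 and chr6:129408612-129408861 of GRCm38.p6, both on the forward strand, and capitals mark the match.
Clec12a: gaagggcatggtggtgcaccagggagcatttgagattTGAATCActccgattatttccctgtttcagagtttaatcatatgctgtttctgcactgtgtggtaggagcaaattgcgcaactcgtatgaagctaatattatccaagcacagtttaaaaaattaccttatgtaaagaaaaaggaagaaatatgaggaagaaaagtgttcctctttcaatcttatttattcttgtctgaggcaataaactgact
Clec9a: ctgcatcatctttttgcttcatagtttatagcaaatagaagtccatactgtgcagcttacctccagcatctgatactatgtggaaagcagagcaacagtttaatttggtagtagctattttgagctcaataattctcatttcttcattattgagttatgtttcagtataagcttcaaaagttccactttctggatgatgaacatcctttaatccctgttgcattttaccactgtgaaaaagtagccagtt
The match in Clec12a has the letters TGAATCA, from 213 to 207 bases before the start (positions -213 to -207), and fits the pattern TGANTCA of AP-1 factors, the family that includes Batf3. The other patterns searched on both strands were GGAAGT (ETS factors), GAAANNGAA (interferon regulatory factors) and CAGGTG (E-box factors). None of the 4 patterns matched in the 250 bases of Clec9a, Clec7a or Cd8a. Of the 32851 promoters of the table, 6.75% held TGANTCA, 19.7% GGAAGT, 7.13% GAAANNGAA and 17.2% CAGGTG in these 250 bases. The 4 promoters had a GC content of 35.6% (Clec9a), 37.2% (Clec12a), 41.6% (Clec7a) and 42.8% (Cd8a), all below the median of 52.4% over the table. A match is a run of letters, and nothing follows from it about binding.

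By the number of intervals found in 1 cell type only, the 4 windows together lay close to the rest of the genome. Of the 137 cDC1 intervals, 69 overlapped no pDC interval by 1 bp or more, which is 50.4% (95% Wilson interval 42.1 to 58.6), beside 50.9% of the whole cDC1 list. Of the 86 pDC intervals, 17 overlapped no cDC1 interval, or 19.8% (12.7 to 29.4), beside 19.7% of the whole pDC list. Intervals of both lists that overlapped were joined into regions, of which there were 154, with 69 found in cDC1 only, 17 in pDC only and 68 open in both. The cDC1 list is longer over the whole genome as well, at 1.61 times the number of intervals, and the ratio in the windows was 1.59. Found in 1 cell type only means that the other list names no interval there, and a weaker signal under the calling threshold was not measured. These lists hold no library totals, so that a difference in accessibility and one in depth cannot be told apart from the presence of a call alone. Wilson intervals cover counting error only, and neighbouring intervals are not independent.

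**Figure D1:**
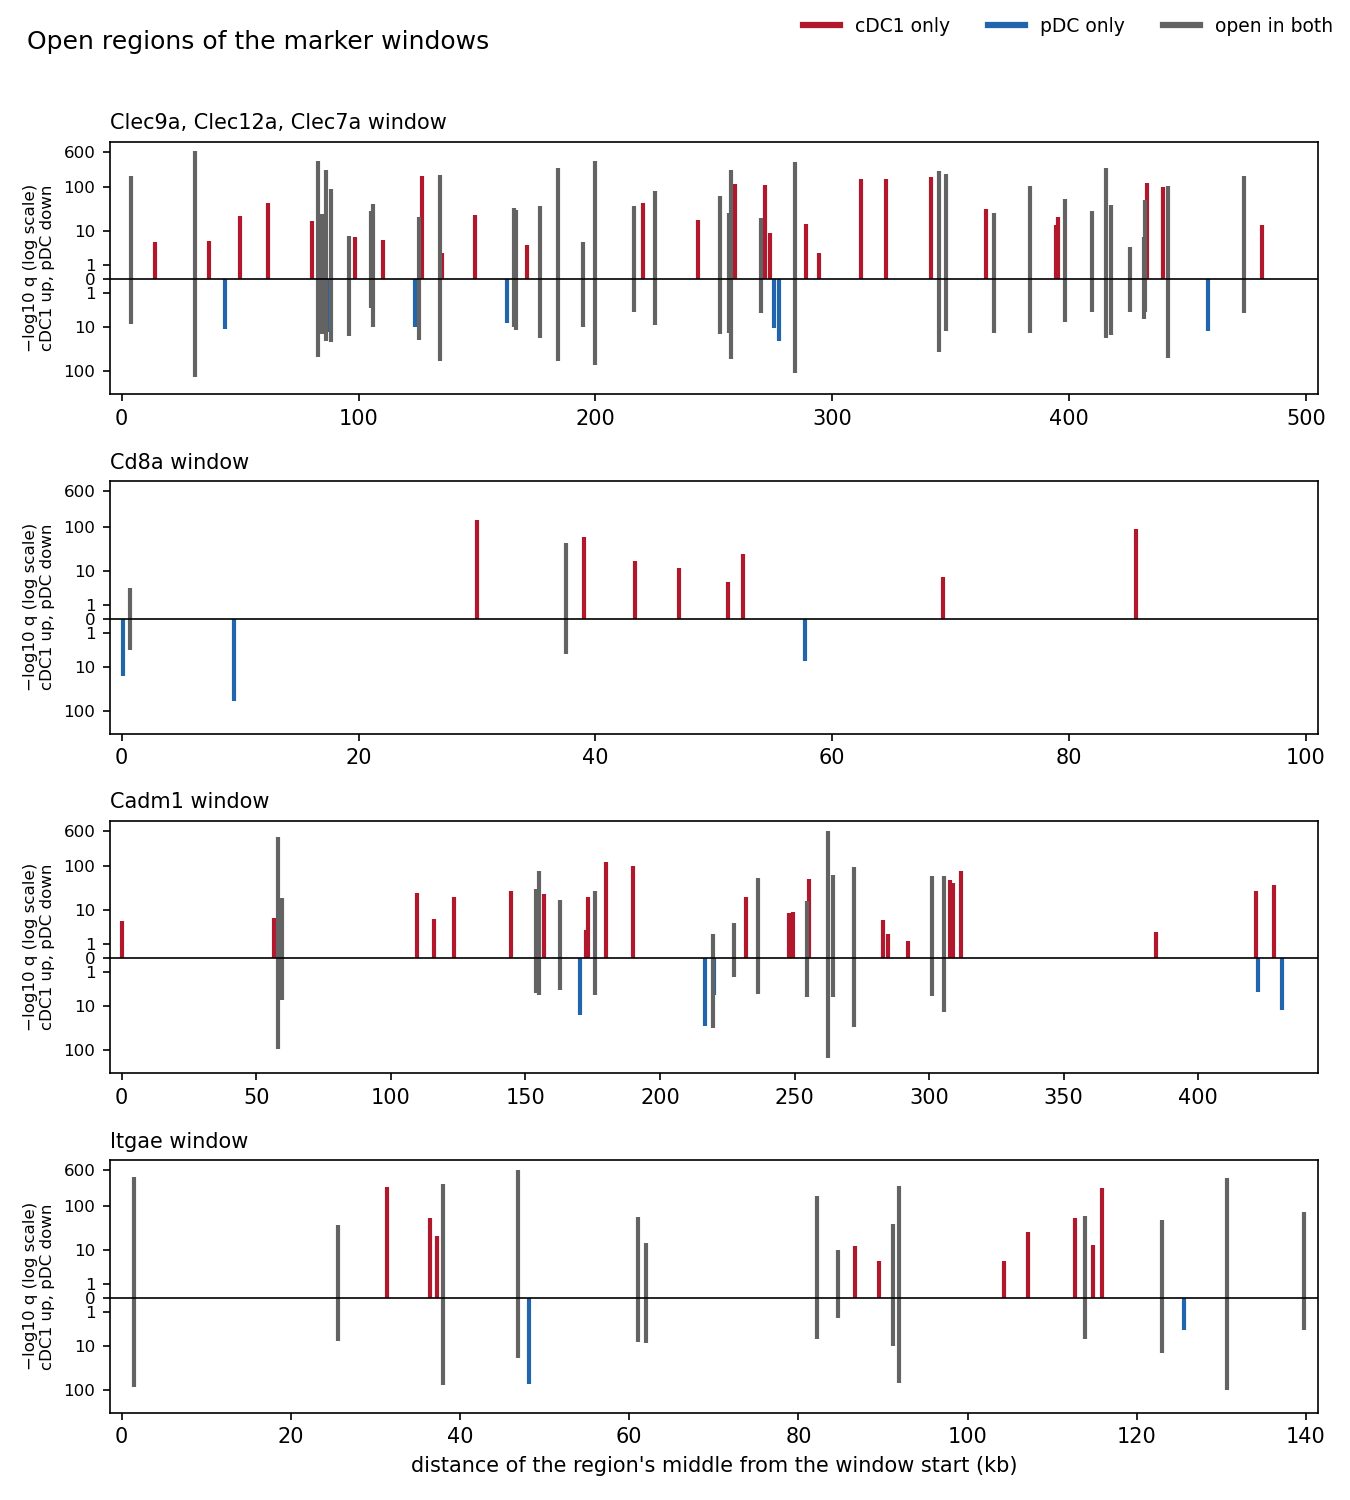
The 154 regions of the 4 windows, placed by the distance of their middle from the window start in kb, with lines upward for the −log10 q in cDC1 and downward for that in pDC on log scales. Red lines mark the 69 regions in cDC1 only, blue lines the 17 in pDC only and grey lines the 68 open in both, and the Cd8a window has 2 grey positions against 14 in the Itgae window.

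Among the 4 windows the share of intervals found in 1 cell type only was highest at Cd8a, within wide counting intervals. In the Cd8a window 8 of 10 cDC1 intervals were found in cDC1 only (80%, 49.0 to 94.3), and in the Cadm1 window 24 of 39 (61.5%, 45.9 to 75.1). The C-type lectin window had 27 of 64 (42.2%, 30.9 to 54.4) and the Itgae window 10 of 24 (41.7%, 24.5 to 61.2). With all listed intervals, these Wilson intervals overlap each other and all include the 50.9% of the whole list. A limit of 10 or more on the −log10 q of both lists counts weaker pDC calls as absent. By that count 7 of 7 cDC1 intervals at Cd8a (64.6 to 100) had no pDC call left, and 85.2% of 27 at Cadm1 (67.5 to 94.1). Both Wilson intervals lie above the 60.2% of the whole list under the same limit. Some of these cDC1 intervals do overlap a weaker pDC interval, so the shares do not give intervals in cDC1 only as defined above. Examples are chr6:71317071-71317894 at Cd8a (pDC value 4.91) and chr9:47434875-47435384 at Cadm1 (5.34). Intervals in pDC only made up 3 of 5 in the Cd8a window (60.0%, 23.1 to 88.2), 5 of 20 in the Cadm1 window (25%, 11.2 to 46.9), 7 of 44 in the C-type lectin window (15.9%, 7.93 to 29.4) and 2 of 17 in the Itgae window (11.8%, 3.29 to 34.3). The Wilson interval of the Cd8a window lies above the 19.7% of the whole list, on 5 intervals, and the others include it. With the window edges moved inwards, 1 of 2 pDC intervals at Cd8a was in pDC only (50%, 9.45 to 90.5), and that interval includes the 19.7% too. Open chromatin was densest in the Itgae window, with 17.1 intervals per 100 kb in cDC1 and 12.1 in pDC, and covered 9.39% of its length in cDC1 and 5.43% in pDC. It was sparsest in the Cadm1 window, with 8.86 and 4.55 intervals per 100 kb in cDC1 and pDC and 4.09% and 1.96% of the length covered.

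The strength of a call is given by the authors' −log10 q of MACS2, the negative decimal logarithm of the q-value at the summit, which also grows with depth and was therefore read within 1 list at a time. The cDC1 intervals found in cDC1 only were stronger here than in the whole list, with a median −log10 q of 21.2 beside 13.5, and those shared with pDC were weaker, at 56.6 beside 81.7. The pDC list went the same way, with a median of 12.6 beside 8.43 for intervals in pDC only and 10.4 beside 15.6 for shared ones. Among the strongest calls, at a −log10 q of 100 or more, 13 of 36 cDC1 intervals were found in cDC1 only, or 36.1% (22.5 to 52.4), beside 14.2% of the whole list. Below that limit the shares were lower than in the whole list, though each Wilson interval included it, at 33.3% of 21 from 50 to 100 (whole list 38.4%), 52.9% of 51 from 10 to 50 (60.6%) and 75.9% of 29 under 10 (81.5%). The limit of 100 was chosen after the values had been seen. The 13 strong intervals were spread over the windows, with 8 of 23 in the C-type lectin window, 1 of 1 in the Cd8a window, 2 of 4 in the Cadm1 window and 2 of 8 in the Itgae window. In pDC, 4 intervals reached a −log10 q of 100 and 0 of these were found in pDC only (Wilson interval up to 49.0%), beside 2.86% of 2763 in the whole list. From 50 to 100, 2 of 11 pDC intervals were found in pDC only, 1 in the Cd8a window and 1 in the Itgae window (18.2%, 5.14 to 47.7, whole list 9.17%). From 10 to 50 the pDC share was 29.4% of 34 (16.8 to 46.2, whole list 17.8%), and under 10 it was 13.5% of 37 (5.91 to 28.0, whole list 27.1%).

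**Figure D2:**
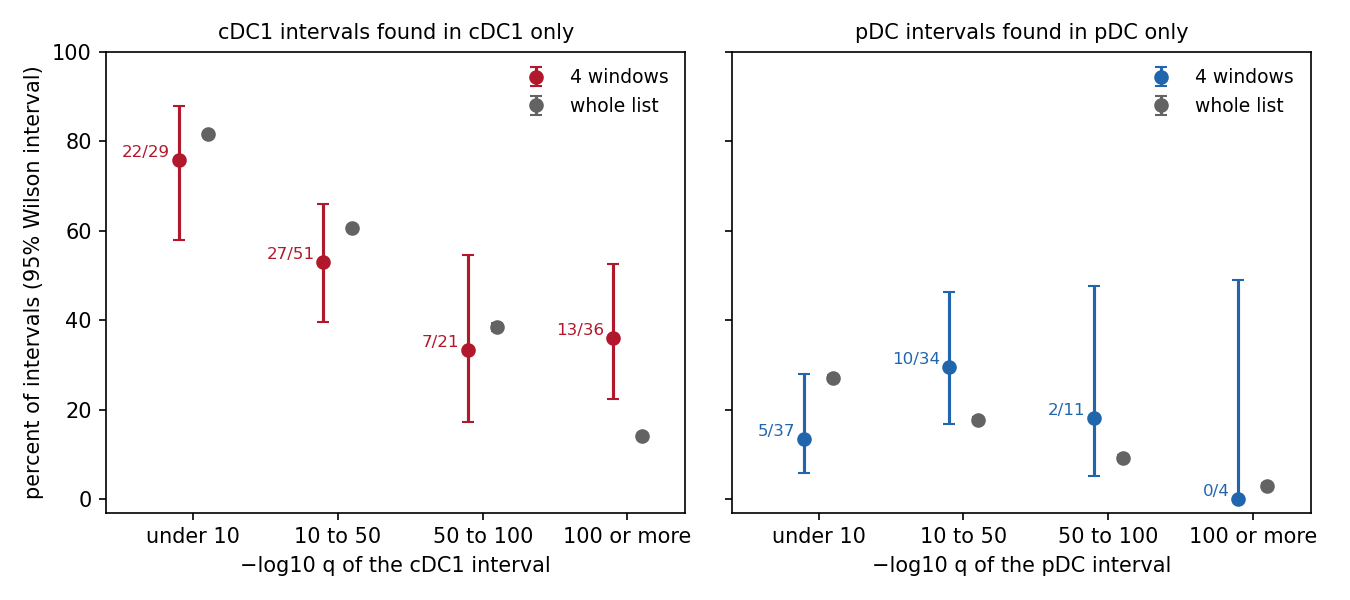
Percent of intervals found in 1 cell type only, by the −log10 q of the interval, with cDC1 on the left and pDC on the right. Coloured points are the 4 windows with their numbers, grey points the whole list, and bars are 95% Wilson intervals. At a −log10 q of 100 or more the cDC1 point of the windows stands at 36.1% and that of the whole list at 14.2%.

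In the C-type lectin window, 3 of the 8 strong intervals in cDC1 only lay in 1 stretch. The longest stretch without a pDC interval ran for 60.2 kb, from 129384719 to 129444889, and held 5 cDC1 intervals. A cDC1 interval inside such a stretch is in cDC1 only by definition, and the lengths of such stretches outside the windows were not measured. The 3 strong intervals had a −log10 q of 148.8 at chr6:129411945-129412520, 154.9 at chr6:129422524-129423145 and 163.7 at chr6:129441281-129441704. They held 5, 5 and 7 footprints with a highest tag count of 468, 584 and 647. The tag count is the whole number deposited with each footprint, read as the number of transposase cuts around it and not scaled for depth. The other 2 intervals of the stretch were weak (−log10 q of 14.6 and 2.68). The stretch was bounded on both sides by regions open in both cell types, at chr6:129384185-129384718 (a cDC1 −log10 q of 361.2 and a pDC value of 108.0) and chr6:129444890-129445374 (221.3 and 36.8).

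The strongest interval in cDC1 only of this window lay elsewhere, at chr6:129226456-129226976, with a −log10 q of 178.9, 10 footprints and a highest tag count of 627, and ranked 931 of the 42640 intervals in cDC1 only. It began 828 bp past a region open in both cell types, chr6:129225185-129225627, whose −log10 q was 21.2 in cDC1 (median of shared cDC1 intervals in the window 56.0) and 19.7 in pDC (14.1). Other strong intervals in cDC1 only stood at chr6:129532717-129533465 (−log10 q of 120.9, 10 footprints) and, outside the 5 largest, at 129358619 to 129359076 (120.0), 129371223 to 129371738 (110.5) and 129539303 to 129539714 (102.9). Over the whole pDC list, intervals in pDC only had a median −log10 q of 8.43. The 7 intervals in pDC only of this window had values of 8.16 to 21.0. The strongest, at chr6:129377273-129377684, had 7 footprints and a highest tag count of 136, and the next, at chr6:129187025-129187436, a −log10 q of 12.9 and 5 footprints. A stretch of 31.4 kb, from 129541980 to 129573426, held no cDC1 interval and 1 of these pDC intervals, at chr6:129558351-129558807 (−log10 q of 12.6).

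The strongest regions of the C-type lectin window were open in both cell types. At chr6:129130335-129131176 the −log10 q was 624.9 in cDC1, with 10 footprints, and 132.1 in pDC, with 9. At chr6:129299448-129300486 it was 380.3 in cDC1 and 71.9 in pDC, at chr6:129182753-129183289 it was 366.4 in cDC1 and 48.5 in pDC, and at chr6:129515243-129515756 it was 267.4 in cDC1 and 17.6 in pDC. The most footprints lay at chr6:129498015-129498511 in cDC1, with 15 (9 in pDC), and at chr6:129541484-129541979 in pDC, with 13 (9 in cDC1).

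To compare regions open in both cell types, footprints of the 2 lists were paired where each shared at least 50% of its bases, and the pair with the most tags stood for its region. Over the whole lists the cDC1 tag count of a pair was a median 3.28 times that of pDC, and each ratio was divided by this median. The result is given as a scaled log2 ratio of cDC1 over pDC, so that 0 means the usual ratio between the lists and 1 means 2-fold higher in cDC1 than usual. Scaling by the mean tag counts of the lists would add 0.36 to every value and scaling by their sums would move it by -0.35. A pair was found in 48 of the 68 regions open in both. Their median scaled log2 ratio was 0.15, with quartiles of -0.45 and 0.36, beside a median of -0.01 and quartiles of -0.51 and 0.39 over all 31914 paired regions. At 2-fold or more, 5 regions (10.4%, 4.53 to 22.2) were higher in cDC1 and 4 (8.33%, 3.29 to 19.6) higher in pDC, beside 8.93% and 12.6% of all paired regions. Both Wilson intervals include the share of the whole lists. By the highest tag count of a region, which needs no pair, 7 and 6 of 67 regions were higher in cDC1 and in pDC, beside 10.4% and 13.7% of all regions open in both, and by fold enrichment 3 and 4 of 68, beside 5.8% and 6.34%.

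**Figure D3:**
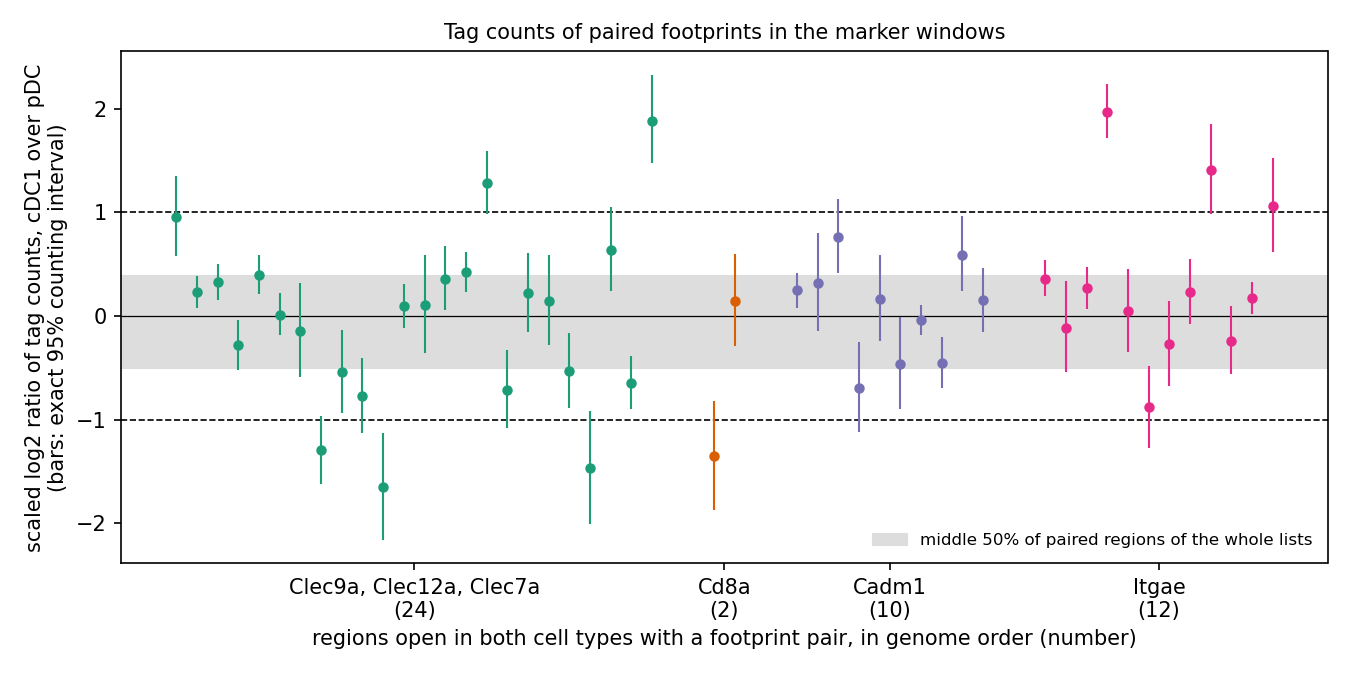
Scaled log2 ratio of tag counts, cDC1 over pDC, of the 48 paired regions, in genome order within each window, with exact 95% counting intervals as bars and the 2-fold limits as dashed lines. The grey band runs from -0.51 to 0.39, the quartiles of all paired regions, and the 5 points above the upper limit lie in the C-type lectin and Itgae windows.

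Of the 24 paired regions of the C-type lectin window, 2 were higher in cDC1 and 3 higher in pDC, with a median of 0.10. The larger difference was at chr6:129573427-129574198, with 618 tags in cDC1 and 51 in pDC, a scaled log2 ratio of 1.89 (exact 95% counting interval 1.47 to 2.33) and a −log10 q of 173.0 and 4.36. By the authors' fold enrichment of the 2 intervals, scaled in the same way, the value was 1.37. At chr6:129447828-129448284 there were 805 tags in cDC1 and 101 in pDC (1.28, 0.98 to 1.60), and the value was under the 2-fold limit by fold enrichment (0.70) and with summed tag counts (0.93). This region lies 2453 bp past the end of the region that closes the 60.2 kb stretch. In the 3 regions higher in pDC, tag counts before scaling were higher in cDC1. There were 184 and 138 tags in cDC1 and pDC at chr6:129225185-129225627 (-1.30, -1.62 to -0.97), 67 and 64 at chr6:129294442-129294752 (-1.65, -2.16 to -1.13) and 64 and 54 at chr6:129525371-129525716 (-1.47, -2.01 to -0.92). By fold enrichment the second kept its call (-1.17), while the first (-0.90) and the third (-0.82) were under the limit, and the first was also under it when scaled by mean tag counts (-0.93). Counting intervals take tags as independent, which cuts from the same fragment and PCR copies need not be.

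The Cd8a window, 100 kb long, held 13 regions, 8 in cDC1 only, 3 in pDC only and 2 open in both. The strongest call of cDC1 was in cDC1 only, at chr6:71309679-71310388, with a −log10 q of 140.9, 7 footprints and a highest tag count of 444. The next were at chr6:71365379-71365872 (91.3, 8 footprints) and chr6:71318803-71319219 (60.5, 2 footprints), and the remaining 5 had a −log10 q of 5.35 to 24.4. The strongest call of pDC was in pDC only, at chr6:71289124-71289797, with a −log10 q of 62.2, 6 footprints and a highest tag count of 282, and ranked 400 of the 10254 intervals in pDC only. The other intervals in pDC only were at chr6:71279890-71280326, which begins before the window (17.0, 8 footprints), and chr6:71337523-71337859 (7.24, 2 footprints). The strongest private intervals of the 2 cell types followed each other in order, with 19881 bp between them that held no interval of either list. A stretch of 28.8 kb without a cDC1 interval (71280911 to 71309678) held the strong pDC interval. A stretch of 27.3 kb without a pDC interval (71289798 to 71317070) held the strong cDC1 interval, and the 2 stretches overlap in the gap between these intervals.

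Both regions open in the 2 cell types at Cd8a had a footprint pair. At chr6:71280559-71280910 there were 72 tags in cDC1 and 56 in pDC, a scaled log2 ratio of -1.35 (-1.87 to -0.82), which put it among the 4 regions higher in pDC. Its −log10 q was 3.59 in cDC1 and 3.72 in pDC, and the value was under the limit by fold enrichment (-0.77) and with mean tag counts (-0.99). At chr6:71317071-71317894 the ratio was 0.15 (-0.29 to 0.60), with 11 footprints in cDC1 and 3 in pDC. In the whole window 5 of 58 cDC1 footprints (8.62%, 3.74 to 18.6) and 5 of 21 pDC footprints (23.8%, 10.6 to 45.1) were shared, where shared means that a footprint of the other cell type covered at least 50% of its bases, beside 26.9% and 40.7% of the whole lists. All shared footprints lay in the 2 regions open in both, which follows from calling footprints inside intervals. The shares therefore depend on how many regions are open in both.

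The Cadm1 window had 44 regions over 440 kb, 24 in cDC1 only, 5 in pDC only and 15 open in both. Its strongest regions were open in both cell types. At chr9:47541709-47542781 the cDC1 interval had a −log10 q of 590.0 and a highest tag count of 1790, against 148.5 and 546 for the pDC interval, whose −log10 q was the largest of pDC in the 4 windows. At chr9:47337539-47338776 it was 448.2 in cDC1 and 92.0 in pDC, with 12 footprints in each. None of the 10 paired regions reached 2-fold in either direction (0 of 10, which allows up to 27.8% by the Wilson interval), with a range of -0.69 to 0.77 and a median of 0.16.

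Among the intervals in cDC1 only of the Cadm1 window, 2 exceeded a −log10 q of 100, at chr9:47459527-47460048 (123.9, 2 footprints, highest tag count 415) and chr9:47469577-47470183 (101.7, 7 footprints, 275). Between them lay 9528 bp without an interval of either list. Of the rest, chr9:47591506-47591948 (76.9), chr9:47535098-47535628 (52.1) and chr9:47587540-47588093 (50.1) were the strongest. The far part of the window held 5 cDC1 intervals with a −log10 q of 2.80 to 76.9 and no pDC interval over 116.2 kb, from 47586059 to 47702236. Within it, 72.4 kb (47591949 to 47664309) held no interval of either cell type.

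Intervals in pDC only at Cadm1 included a pair of neighbours around a region open in both. At chr9:47496328-47496881 the pDC interval had a −log10 q of 29.5, 6 footprints and a highest tag count of 183, and at chr9:47499926-47500130 a −log10 q of 5.42 and 3 footprints. Between them, chr9:47499329-47499764 was open in both, with a −log10 q of 2.42 and a highest tag count of 79 for the cDC1 interval and of 32.1 and 170 for the pDC interval. The median for shared intervals of the window was 55.4 in cDC1 and 5.97 in pDC, so the cDC1 value was low and the pDC value high for its own list. It had no footprint pair. By the highest tag count of the region, scaled by the median ratio of 3.24, its log2 ratio was -2.80, and by fold enrichment -1.91. Its 2 summits lay 124 bp apart. This region is named because its pDC −log10 q was among the 5 largest of the window. The highest tag count as a measure was chosen after the data had been seen. At chr9:47450202-47450704 a pDC interval with a −log10 q of 16.6 held 13 footprints, the most of any pDC interval in the window.

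The Itgae window held the highest scaled ratio of the 48 paired regions. Of its 26 regions over 140 kb, 10 were in cDC1 only, 2 in pDC only and 14 open in both. Of the 12 paired regions, 3 were 2-fold or more higher in cDC1 (25%, 8.89 to 53.2) and 0 higher in pDC (up to 24.2%), with a median of 0.20, beside 8.93% and 12.6% of all paired regions. At chr11:72906313-72907327 the cDC1 interval had a −log10 q of 617.6 and 10 footprints, and the pDC interval 19.0 and 1 footprint. Its pair had 1721 tags in cDC1 and 134 in pDC, a scaled log2 ratio of 1.97 (1.72 to 2.24), and 1.35 by fold enrichment. Of the 31914 paired regions, 367 had a higher ratio.

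The next region along the chromosome went the other way. At chr11:72907830-72908570, 502 bp past the end of that region, pDC had an interval with a −log10 q of 76.3, 8 footprints and a highest tag count of 306, and cDC1 had none. It was the strongest interval in pDC only of the 4 windows and ranked 230 of 10254. A region with a scaled log2 ratio of 1.97 thus stood directly beside an interval listed in pDC alone. Before scaling it had 12.8 times as many tags in cDC1, where the median over the whole lists was 3.28 times.

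The other 2 regions called higher in cDC1 at Itgae rested on fewer tags. At chr11:72973632-72974196 there were 443 tags in cDC1 and 51 in pDC (1.41, 0.99 to 1.85), but the summits of the 2 cell types lay 319 bp apart and the value by fold enrichment was -0.30, of the opposite sign. At chr11:72999442-73000099, at the end of the window, there were 328 tags in cDC1 and 48 in pDC (1.06, 0.62 to 1.53), with 0.70 by fold enrichment and 0.71 with summed tag counts. Both lower bounds of these counting intervals fall under the 2-fold limit. At chr11:72941882-72942408, without a pair and outside the naming rule, the highest tag count was 674 in cDC1 and 70 in pDC, a scaled log2 ratio of 1.57 by that measure and 0.94 by fold enrichment.

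Strong intervals in cDC1 only at Itgae were those at chr11:72890831-72891839, with a −log10 q of 255.4, 18 footprints and a highest tag count of 915, and at chr11:72975685-72976171, with 241.8, 6 footprints and 1025. They ranked 332 and 391 of the 42640 intervals in cDC1 only and were the strongest of the 69 in the windows. The following intervals in cDC1 only were at chr11:72972520-72972939 (55.1) and chr11:72896254-72896612 (54.8).

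Regions of the Itgae window with like levels in both cell types were strong as well. At chr11:72860990-72862007 the −log10 q was 426.2 in cDC1 and 85.2 in pDC (scaled log2 ratio 0.36), and at chr11:72989887-72991407 it was 407.3 in cDC1 and 100.3 in pDC (0.18). That region held the most footprints of any in the 4 windows, 20 in cDC1 and 15 in pDC. At chr11:72897647-72898313 it was 294.4 in cDC1 and 76.9 in pDC (0.27). From 72862008 to 72885303, 23.3 kb held no interval of either cell type.

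**Figure D4:**
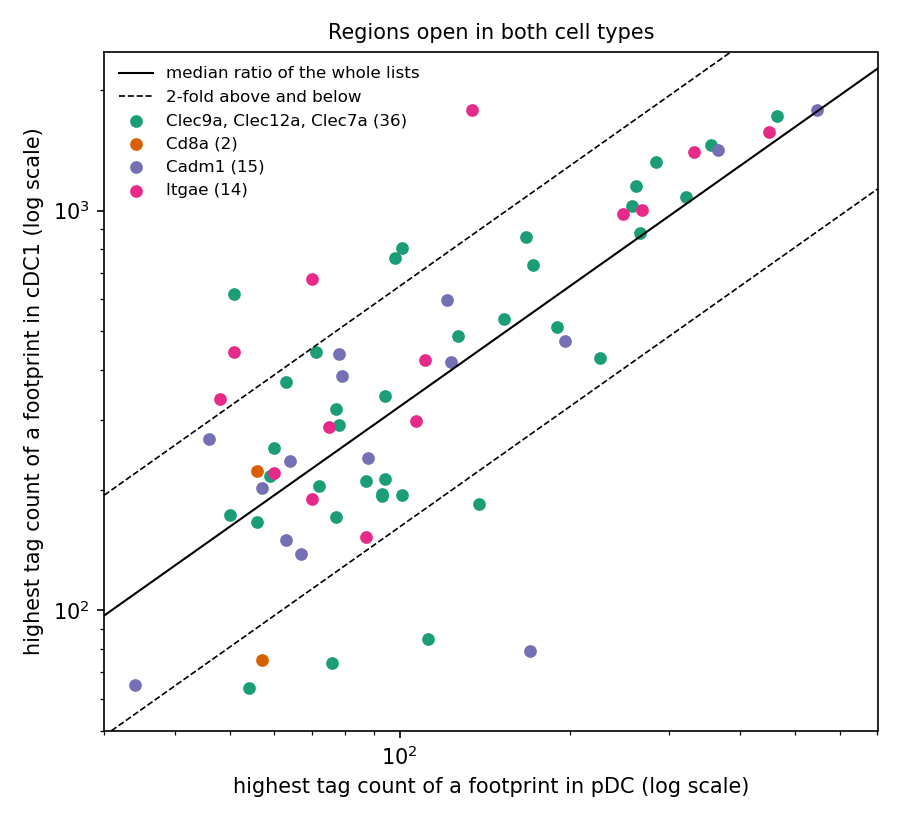
Highest tag count of a footprint in each of 67 regions open in both cell types, cDC1 on the vertical and pDC on the horizontal log axis, coloured by window. A solid line marks the whole-list median ratio of 3.24 and dashed lines the 2-fold limits, and the Itgae point far above it is the region with 1784 tags in cDC1 and 134 in pDC.

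Shares of footprints over the 4 windows together lay close to those of the whole lists. The mean number of footprints per interval was 5.81 in cDC1 and 5.69 in pDC, beside 6.14 and 6.03 in the whole lists. Of the cDC1 footprints 202 of 796 were shared (25.4%, 22.5 to 28.5, whole list 26.9%), and of the pDC footprints 189 of 489 (38.7%, 34.4 to 43.0, whole list 40.7%). By window the cDC1 share was 28.7% at Itgae, 27.6% at the C-type lectins, 23.7% at Cadm1 and 8.62% at Cd8a, and the pDC share 46.6%, 36.2%, 40.5% and 23.8% in the same order. Inside regions open in both, 44.9% of 450 cDC1 footprints and 46.3% of 408 pDC footprints were shared, beside 45.1% and 48.4% in the whole lists. The summits of the 2 cell types lay within 50 bp of each other in 47 of the 68 regions open in both (69.1%, whole lists 70.1%), with 28 of 37 at the C-type lectins, 11 of 15 at Cadm1, 8 of 14 at Itgae and 0 of 2 at Cd8a.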

How the data were processed

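Omni-ATAC-seq of 4 samples, 2 of sorted cDC1 and 2 of sorted pDC, was used as 1 merged list per cell type. According to the methods of the study and the submitters' processing notes, the authors used Trim Galore for trimming, Bowtie2 for alignment to mm9 and samtools for removal of duplicates and poor alignments, called peaks with MACS2 without a shifting model and with a library-wide background, and ran HINT-ATAC inside the peaks. Tool versions: not given in the sources used here. Positions ran past the GRCm38 chromosome end on 8 of 21 chromosomes and were kept as mm9.

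The deposited fold enrichment is a ratio of the summit over that background. The −log10 q deposited by the authors comes from MACS2 for each summit and goes down to 1.30, so the filter at 10 that the methods name was not applied to these lists and is used here as an alternative. The deposited MACS2 score was not used further. The deposited value of a footprint was read as an unscaled tag count, since it is a whole number and higher on average in cDC1 (362.0) than in pDC (142.1). No source used here gives the counting window. The total count per library is not in these lists, so depth enters only through the scaling.

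Summit lines of 1 interval were joined and took the largest −log10 q among them. Intervals shared at least 1 bp, and footprints at least 50% of their bases. Pairs of footprints were made 1 to 1, most shared bases first. No test was run, since each cell type has 1 merged list. Shares have 95% Wilson intervals and ratios exact 95% intervals, for counting error only. Reads are PCR products without molecular identifiers. The regions named are, per window and cell type, the 5 intervals with the largest −log10 q, the 2 with the most footprints and the 5 in that cell type only with the largest −log10 q, with all regions at 2-fold or more and the 2 highest and 2 lowest ratios. Regions beyond these that bound a stretch or are named as outside the rule were chosen after their values had been seen. Windows, motifs and lists were chosen with earlier results of these data known. Alternatives were another overlap, limits on −log10 q, an equal list length, moved window edges, other scalings, fold enrichment and a 1.5-fold limit. Overlaps and the steps, tested on simulated data, were computed with Python 3.11.15 (pandas 2.3.3, numpy 2.4.6, scipy 1.17.1) and bedtools 2.31.1, and figures with matplotlib 3.10.9.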

Additional observations from a re-analysis of the deposited data

How the results depend on the processing

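No paired analysis was possible because each cell type comes as 1 list of its merged replicates, and leaving out a replicate was not possible for the same reason. The shares of intervals in 1 cell type only moved with a limit on the −log10 q of both lists. Such a limit removes the weaker calls of both lists. An interval that overlaps only removed calls then counts as in 1 cell type only, although the full list names an interval there. At 10 or more, the share in cDC1 only was 67.6% over the windows (whole list 60.2%), 53.8% at the C-type lectins, 100% at Cd8a, 85.2% at Cadm1 and 68.2% at Itgae. The share in pDC only was 28.6% over the windows (whole list 18.5%), with 49 pDC intervals left. By window it was 22.6% at the C-type lectins (7 of 31), 100% at Cd8a (2 of 2), 50% at Cadm1 (4 of 8) and 12.5% at Itgae (1 of 8). At 50 or more, with weaker calls counted as absent, cDC1 gave 77.2% (whole list 76.0%), 75% at the C-type lectins, 100% at Cd8a, 84.6% at Cadm1 and 69.2% at Itgae. The pDC share was 0% at the C-type lectins (of 7), 100% at Cd8a (1 of 1), 0% at Cadm1 (of 2) and 20% at Itgae (1 of 5), beside 14.1% of the whole list. With the cDC1 list limited to the length of the pDC list, 40.8% of cDC1 (whole list 34.5%) and 31.4% of pDC intervals (32.9%) were in 1 cell type only. By window the cDC1 share was 80% at Cd8a (4 of 5), 53.8% at Cadm1 (14 of 26), 33.3% at Itgae (6 of 18) and 32.7% at the C-type lectins (16 of 49). The pDC share was 80%, 40%, 23.5% and 25% in the same order, with removed cDC1 calls counted as absent. With the limit of 100 on cDC1 alone, chosen after the data had been seen, the share was 36.1% over the windows and 100% at Cd8a. The share of shared footprints was 32.3% in cDC1 and 50.9% in pDC at an overlap of 1 bp, 18.5% and 26.2% at 80%, and 34.2% and 33.5% with cDC1 footprints limited to the number in pDC. The whole lists gave 33.1% and 51.9%, 19.3% and 28.2%, and 38.0% and 34.8% under these settings. Regions higher in cDC1, 5 as reported, were 8 when scaled by mean tag counts, 3 by summed tag counts, 3 by fold enrichment and 9 at a 1.5-fold limit. Regions higher in pDC, 4 as reported, were 2, 8, 4 and 9 under the same settings. By fold enrichment 2 of the 5 higher in cDC1 and 1 of the 4 higher in pDC, chr6:129294442-129294752, kept the call, and the others counted are different regions. The median scaled log2 ratio, 0.15 as reported, was 0.51 when scaled by mean tag counts, -0.21 by summed tag counts and -0.12 by fold enrichment. The region chr11:72973632-72974196 at Itgae changed sign by fold enrichment (-0.30). The causes were not tested. Another overlap of intervals, moved window edges and the highest tag count of a region, the last chosen after the data had been seen, kept the other values within counting error, or within 1.5 times for counts over the 4 windows. What limits these lists is that 1 merged library stands for each cell type and that they hold no library totals.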
